A study of Mus musculus with 8 samples.

Results

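The genes described are the parts list of intraflagellar transport (IFT) and of the BBSome. They were taken by symbol: every *Ift* or *Bbs* gene with a number, and the genes *Dync2h1*, *Dync2i1*, *Dync2i2*, *Dync2li1*, *Wdr19*, *Wdr35*, *Ttc21b*, *Ttc30a1*, *Ttc30a2*, *Ttc30b*, *Cluap1*, *Traf3ip1*, *Tulp3*, *Arl3*, *Arl6*, *Arl13b*, *Mkks* and *Lztfl1*. The rule used names only and found 41 of the 55357 genes deposited. Of these, 40 reached a transcripts-per-million value (TPM) of 1 in at least 1 sample and were tested. The one that did not was *Ift88os*, a noncoding RNA antisense to *Ift88*, at 0.35 to 0.72 TPM.

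RNA came from germ cell preparations of C57BL/6 male pups at 15 days after birth, with 1 pup per library. The 4 controls were *Mgat2*[F/F], with both *Mgat2* alleles floxed and no Cre. The 4 conditional knockout (cKO) samples were *Mgat2*[F/F]:*Stra8*-iCre, in which the recombinase is made in spermatogonia, the germ cells that enter meiosis. No Cre-positive group without floxed alleles was compared, so the transgene and the deletion cannot be told apart. MGAT2 is the Golgi enzyme that adds the branch turning a hybrid N-glycan into a complex one. The comparison asked which transcripts differ between cKO and control germ cells at this age.

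Cilia and the sperm flagellum are assembled at their tips from parts carried along microtubules by IFT trains. Kinesin-2 pulls the trains outward with the IFT-B complex and cytoplasmic dynein-2 returns them with the IFT-A complex. The BBSome, a coat complex recruited to membranes by the GTPase ARL6, rides on the trains and removes membrane proteins from cilia. In the testis round spermatids grow the flagellum, which IFT subunits are needed to build, and transcripts for flagellar parts begin to accumulate in pachytene spermatocytes. RFX transcription factors bind a palindromic element, the X-box, before many ciliary genes.

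The sequences shown first are those that bear on the gene with the largest fold change, *Ttc30a2*. It is one of 3 single-exon paralogs on chromosome 2 that encode IFT70, a tetratricopeptide-repeat subunit of IFT-B. Each paralog has 1992 coding bases in GENCODE M39, where they are named *Ift70a1*, *Ift70a2* and *Ift70b*. *Ttc30a1* and *Ttc30a2* were identical at 95.1% of aligned bases, *Ttc30a1* and *Ttc30b* at 94.9%, and *Ttc30a2* and *Ttc30b* at 94.9%. Of the 150-base windows in the *Ttc30a1* coding sequence, the length of 1 read, 23.8% also occurred without a mismatch in *Ttc30a2* and 3.42% in *Ttc30b*. Reads from such windows can fit more than 1 paralog, and RSEM divides reads that fit several genes. The reads were paired, so a mate can still tell paralogs apart, and the share of reads divided was not measured. The first 90 coding bases of each are shown in GRCm39, with capitals at bases that differ from *Ttc30a1* (11 in *Ttc30a2* and 10 in *Ttc30b*).
*Ttc30a1*, chr2:75811992-75812081, - strand: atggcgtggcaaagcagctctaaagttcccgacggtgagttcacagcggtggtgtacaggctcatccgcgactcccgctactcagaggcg
*Ttc30a2*, chr2:75808421-75808510, - strand: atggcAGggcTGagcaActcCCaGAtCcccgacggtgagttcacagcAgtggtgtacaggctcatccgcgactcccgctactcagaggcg
*Ttc30b*, chr2:75768662-75768751, - strand: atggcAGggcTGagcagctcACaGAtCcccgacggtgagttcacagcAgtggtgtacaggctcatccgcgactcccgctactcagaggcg

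The X-box was searched as GTNNCC and GGNNAC separated by up to 3 bases, in the 250 bases before the RefSeq start of each gene. The pattern is its own reverse complement, so 1 search covers both strands. RefSeq's promoter table (GRCm38.p6) held 33 of the 41 genes by symbol and not *Dync2i1*, *Dync2i2*, *Dync2li1*, *Ift80*, *Ift81*, *Ift122*, *Ttc30b* or *Ift88os*. The element was present in 6 of the 33 (18.2%) and in 3.66% of the 27025 genes of the table (3.21% of its 32851 promoters). The 6 windows are shown because they include *Ttc30a2*, where the element ended 11 bases before the start. Capitals mark the element, with up to 20 bases on either side, and *Ift22* and *Ift57* each had 2 elements.
*Ttc30a2*, chr2:75978180-75978223, - strand: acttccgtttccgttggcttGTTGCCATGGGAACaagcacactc
*Ift22*, chr5:136908067-136908149, + strand: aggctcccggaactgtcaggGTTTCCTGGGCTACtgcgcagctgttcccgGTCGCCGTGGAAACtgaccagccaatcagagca
*Ift57*, chr16:49699187-49699266, + strand: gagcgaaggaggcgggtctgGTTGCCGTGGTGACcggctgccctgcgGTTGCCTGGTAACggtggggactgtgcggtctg
*Bbs7*, chr3:36613477-36613530, - strand: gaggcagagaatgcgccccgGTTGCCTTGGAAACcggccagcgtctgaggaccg
*Wdr19*, chr5:65199642-65199695, + strand: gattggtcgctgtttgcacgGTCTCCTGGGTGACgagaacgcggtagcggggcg
*Lztfl1*, chr9:123717755-123717809, - strand: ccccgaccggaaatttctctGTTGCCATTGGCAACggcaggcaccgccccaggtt

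The 6 genes with the element had a median log2 fold change (cKO over control) of -0.49, and the other 27 tested genes found in the table one of -0.22. These are descriptions of 2 unequal lists, and a match does not show that a factor binds there. With the half-site GTTGCC alone, on either strand, 8 of the 33 genes had a match (24.2%, and 11.8% of all genes in the table). Their median log2 fold change was also -0.49. Both lists held *Bbs7*, *Ift57*, *Lztfl1* and *Ttc30a2*, and both medians lie midway between *Ift57* and *Bbs7*, so they are not separate results.

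Most IFT and BBSome transcripts were measured at lower levels in cKO than in control germ cells, by small amounts, and with the samples of the genotypes overlapping for all but 5 genes. Of the 40 genes, 34 had a negative log2 fold change, with a median of -0.28, while 48.6% of all 20187 genes tested had a negative one and their median was 0.01. No gene of the set passed an adjusted p of 0.05 in edgeR (0 of 40, against 0.0396% of all genes, or 8). An unadjusted p under 0.05 was reached by 19 of the 40, all with lower values in cKO, against 6.28% of all genes in that direction, and by 0 with higher values, against 2.62%. Leaving out 1 sample moved the 19 to between 10 and 22, all lower in cKO. The count was 10 without cKO 2, and 12 without control 3 or cKO 4. Over all 20187 genes, those lower at that p numbered 1267 with all samples. Leaving out controls 1 to 4 in turn gave 874, 1303, 1008 and 1529 of all genes. Leaving out cKO 1 to 4 in turn gave 1845, 860, 858 and 888. DESeq2, the tool the authors used, called 6 of the 40 lower in cKO, against 1.41% of all genes, and 0 higher, against 0.0894%. The 6 were *Dync2h1* (adjusted p = 0.000854), *Dync2i1* (0.0178), *Ift172* (0.0222), *Ttc30a1* (0.0335), *Ift22* (0.0356) and *Ttc21b* (0.0447). In bulk RNA, fewer cells of a type and less RNA per cell cannot be told apart, and the p-values measure the spread between these 8 mice.

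**Figure D1:**
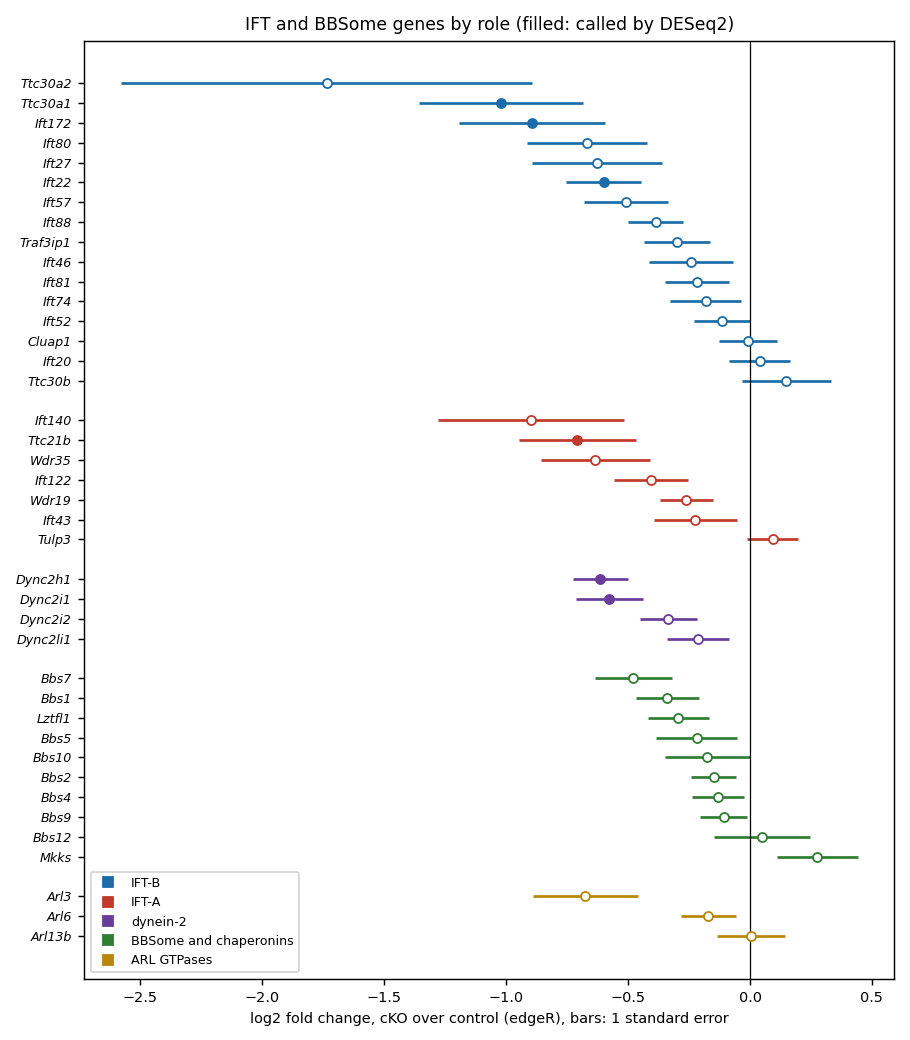
Log2 fold change (x axis, cKO over control, edgeR fit on 4 and 4 samples) of the 40 tested genes, grouped by role, with bars of 1 standard error and filled points for the 6 genes that DESeq2 called. Of the 40 points, 34 lie below 0, and the 4 dynein-2 genes all do.

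Total expected counts per library ran from 12584726 to 15907505, so that 3 counts, the floor used here, were worth 0.19 to 0.234 counts-per-million units (CPM). The floor covers counting error only, and each of the 40 genes stood above it in every sample. *Mgat2* itself stood at 69.8, 31.8, 64.3 and 59.8 CPM in controls 1 to 4 and 35.3, 20.1, 37.6 and 16.0 in cKO 1 to 4. Control 2 was under cKO 1 and cKO 3, so the genotypes overlapped (log2 fold change -1.05 ± 0.36, adjusted p = 0.47). The preparations also held RNA of Sertoli cells, the somatic cells that support germ cells. The 8 Sertoli markers summed to 5324 to 6599 TPM in controls and 5566 to 6605 TPM in cKO, with replicate 1 lowest in each genotype. The 4 general germ cell markers summed to 1544 to 1878 and 1433 to 1593 TPM. Of these, 3 had a negative log2 fold change, against 48.6% of all genes tested. At an unadjusted p under 0.05 *Ddx4* was lower in cKO (log2 fold change -0.41), against 6.28% of all genes. At that p *Dazl* was higher (0.22), against 2.62%. How much of each value below comes from germ cells was not tested.

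Dynein-2, the motor of the return trip, had 4 genes in the set. All 4 had a negative log2 fold change (median -0.46), against 48.6% of all genes tested. For 3 of them every cKO sample lay below every control, against 3.03% of all genes. Without control 1 and cKO 1 the median was -0.31, with all 4 still negative. *Dync2h1* encodes the motor's heavy chain, and stood at 250.3, 173, 208 and 167 CPM in controls 1 to 4 and 129.7, 132, 132 and 128 in cKO 1 to 4. The cKO samples lay close together and below every control, and control 1 was the highest sample. The log2 fold change was -0.61 ± 0.11 (edgeR, SE), a level 1.53-fold lower, with the smallest unadjusted p of the set (0.000183, adjusted p = 0.141). *Dync2i1*, an intermediate chain also called WDR60, stood at 62.0, 43.7, 45.6 and 38.5 CPM in controls 1 to 4 and 29.9, 31.4, 35.1 and 30.9 in cKO 1 to 4. Its genotypes did not overlap either, and its lowest control, control 4, lay just above cKO 3 (log2 fold change -0.58 ± 0.14, adjusted p = 0.251). *Dync2i2*, the other intermediate chain (WDR34) and the dynein-2 gene with the highest level per length, stood at 59.8, 42.5, 48.2 and 41.7 CPM in controls 1 to 4 and 38.2, 37.3, 39.2 and 37.6 in cKO 1 to 4. Its cKO samples again lay together below the controls (log2 fold change -0.34 ± 0.12, adjusted p = 0.437). *Dync2li1*, the light intermediate chain, overlapped between genotypes, with a log2 fold change of -0.21 ± 0.13. In TPM, which is per length, *Dync2i2* had medians of 55.8 in controls and 42.5 in cKO, and *Dync2h1* medians of 25.5 and 18.3. The 4 genes summed to 134.2 to 170.5 TPM in controls and 108.8 to 116.7 TPM in cKO.

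Across the 40 genes, every cKO sample lay below every control sample for 5, the 3 dynein-2 genes, *Ift22* and *Arl3*, against 3.03% of all genes tested. Every cKO sample lay above every control for 0 of the 40, against 2.47% of all genes.

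**Figure D2:**
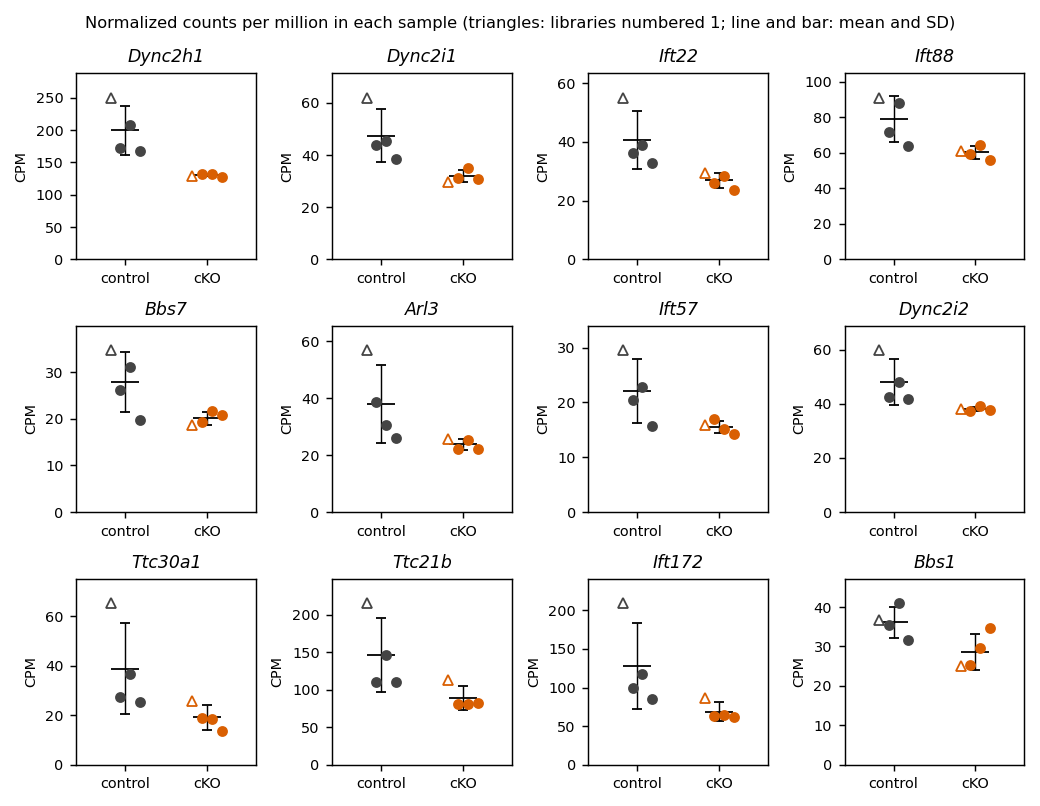
CPM (y axis, normalized with TMM factors, from 0) of the 12 genes with the smallest unadjusted p in edgeR, for the 4 control and 4 cKO samples, with triangles for the libraries numbered 1 and the mean and SD as a line and bar. The cKO samples of *Dync2h1* lie between 127.7 and 132.1 CPM, and control 1 is the highest sample of every gene drawn but *Bbs1*.

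IFT-A, the complex of the return trains, had 7 genes counting the adapter *Tulp3*. Of these, 6 had a negative log2 fold change (median -0.40), against 48.6% of all genes tested. Lower values in cKO with an unadjusted p under 0.05 were found for 4, against 6.28% of all genes. The 4 became 1 without cKO 2 or cKO 4 and 2 without control 3 or cKO 3. That count rose to 5 without control 2 or cKO 1 and 6 without control 4. Over all 20187 genes, the count lower in cKO ran in these fits from 858 (without cKO 3) to 1845 (without cKO 1). The IFT-A median was -0.24 without control 1 and -0.50 without control 4. *Ttc21b* (IFT139), a peripheral subunit, stood at 216, 111, 147 and 111 CPM in controls 1 to 4 and 113, 81.1, 80.8 and 83.0 in cKO 1 to 4. The one high cKO sample, cKO 1, lay just above controls 2 and 4, and the other cKO samples lay below all controls (log2 fold change -0.71 ± 0.24, adjusted p = 0.465). *Wdr35* (IFT121), another peripheral subunit, stood at 191, 103, 139.7 and 101 CPM in controls 1 to 4 and 107, 83.1, 80.6 and 73.6 in cKO 1 to 4. Here cKO 1 lay above control 2 and control 4, and the other cKO samples lay below all controls (log2 fold change -0.63 ± 0.22, adjusted p = 0.476).

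Among the core IFT-A subunits, *Ift122* stood at 189.7, 129, 146 and 112 CPM in controls 1 to 4 and 126, 103, 98.8 and 108 in cKO 1 to 4. Its cKO 1 lay above control 4, so the genotypes overlapped (log2 fold change -0.40 ± 0.15, adjusted p = 0.487). *Wdr19* (IFT144), the IFT-A gene with the lowest level per length, stood at 87.8, 73.5, 80.6 and 61.5 CPM in controls 1 to 4 and 68.0, 60.2, 66.0 and 58.9 in cKO 1 to 4. Its lowest control, control 4, was below cKO 1 and cKO 3 (log2 fold change -0.26 ± 0.11, adjusted p = 0.52). *Ift140*, the remaining core subunit, stood at 383, 149.6, 191 and 143 CPM in controls 1 to 4 and 165, 101, 104 and 95.2 in cKO 1 to 4. Control 1 was far above every other sample, and cKO 1 lay above controls 2 and 4 (log2 fold change -0.90 ± 0.38, adjusted p = 0.567). *Ift43*, a small subunit and the IFT-A gene with the highest level per length, stood at 38.8, 25.2, 29.1 and 20.7 CPM in controls 1 to 4 and 25.4, 25.6, 21.4 and 25.0 in cKO 1 to 4. Its cKO values lay within the range of the controls (log2 fold change -0.22 ± 0.17, adjusted p = 0.712). *Tulp3*, which brings membrane receptors to the IFT-A train, had a log2 fold change of 0.09 ± 0.11, a sign that turned to -0.01 with limma on log2(TPM + 1). In TPM, *Ift43* had medians of 89.6 in controls and 81.5 in cKO, and *Wdr19* medians of 23.4 and 20.3.

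IFT-B, the complex of the outward trains, had 16 genes. Of these, 14 had a negative log2 fold change (median -0.34), against 48.6% of all genes tested. Lower values in cKO with an unadjusted p under 0.05 were found for 8, against 6.28% of all genes. The 8 became 4 without cKO 2 and 5 without control 1, control 3 or cKO 4. That count rose to 9 without control 4 and 10 without cKO 1. Over all 20187 genes, the count lower in cKO ran in these fits from 860 (without cKO 2) to 1845 (without cKO 1). With all samples, the IFT-B genes ranged from *Ttc30a2* at -1.74 to *Ttc30b* at 0.15. *Ift22*, a RAB-like GTPase subunit, stood at 55.1, 36.2, 39.0 and 32.8 CPM in controls 1 to 4 and 29.5, 25.9, 28.5 and 23.6 in cKO 1 to 4. It was the only IFT-B gene whose genotypes did not overlap (log2 fold change -0.60 ± 0.15, adjusted p = 0.313). *Ift88*, a core subunit without which cilia do not form, stood at 91.0, 71.8, 88.0 and 64.0 CPM in controls 1 to 4 and 61.1, 59.2, 64.5 and 56.0 in cKO 1 to 4. Only cKO 3 lay above the lowest control, control 4 (log2 fold change -0.39 ± 0.11, adjusted p = 0.354). *Ift172*, the largest IFT-B subunit, stood at 209.8, 99.1, 118 and 85.6 CPM in controls 1 to 4 and 86.7, 62.6, 64.0 and 62.1 in cKO 1 to 4. Control 1 was far above the rest, and cKO 1 just passed control 4 (log2 fold change -0.89 ± 0.30, adjusted p = 0.469).

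*Ift57*, a peripheral IFT-B subunit, stood at 29.5, 20.4, 22.7 and 15.7 CPM in controls 1 to 4 and 15.8, 17.0, 15.2 and 14.2 in cKO 1 to 4. Control 4 fell among the cKO samples and the other controls were higher (log2 fold change -0.51 ± 0.17, adjusted p = 0.436). *Ift80*, which sits with *Ift57* in the same subcomplex, stood at 152, 87.5, 114 and 72.7 CPM in controls 1 to 4 and 85.1, 56.8, 69.6 and 56.4 in cKO 1 to 4. Its cKO 1 lay above control 4 (log2 fold change -0.67 ± 0.25, adjusted p = 0.5). *Ift27*, a second RAB-like GTPase, which also helps the BBSome leave the cilium, stood at 22.1, 11.7, 13.5 and 10.2 CPM in controls 1 to 4 and 12.8, 8.54, 6.49 and 9.43 in cKO 1 to 4. The cKO 1 sample lay above 2 controls (log2 fold change -0.63 ± 0.27, adjusted p = 0.531). *Traf3ip1* (IFT54), a microtubule-binding subunit, stood at 37.5, 34.8, 37.8 and 26.9 CPM in controls 1 to 4 and 25.2, 27.7, 33.4 and 25.2 in cKO 1 to 4. Control 4 lay below 2 of the cKO samples (log2 fold change -0.30 ± 0.13, adjusted p = 0.555).

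The other IFT-B genes were near 0 or had intervals that included it. *Ift46*, *Ift81*, *Ift74* and *Ift52*, of the IFT-B core, had log2 fold changes of -0.24 ± 0.17, -0.22 ± 0.13, -0.18 ± 0.14 and -0.12 ± 0.12. *Cluap1* (IFT38) had one of -0.01 ± 0.12, with a 95% interval from -0.27 to 0.25. *Ift20*, the subunit that also works at the Golgi and the IFT-B gene with the highest level per length, stood at 44.3, 33.8, 38.2 and 34.9 CPM in controls 1 to 4 and 47.5, 35.1, 35.6 and 37.2 in cKO 1 to 4. Its highest sample was cKO 1 and the genotypes overlapped (log2 fold change 0.04 ± 0.13, 95% interval from -0.23 to 0.31). In TPM, *Ift20* had medians of 105.2 in controls and 102.6 in cKO, and *Ttc30b*, the lowest of IFT-B by the median of all 8 samples, medians of 6.01 and 6.935. In cKO alone *Ttc30a2* had a lower median, 4.46 TPM.

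The 3 IFT70 paralogs had different fold changes, and the differences between them were not tested. *Ttc30a2* stood at 74.4, 12.6, 30.3 and 14.3 CPM in controls 1 to 4 and 23.4, 6.21, 6.14 and 3.62 in cKO 1 to 4. Control 1 and control 3 were high among the controls, and cKO 1 lay above controls 2 and 4. The fold change and its error were the largest of the set (log2 fold change -1.74 ± 0.84, adjusted p = 0.612, 95% interval from -3.76 to 0.29). *Ttc30a1* stood at 65.4, 27.5, 36.8 and 25.5 CPM in controls 1 to 4 and 25.6, 18.7, 18.6 and 13.5 in cKO 1 to 4. It had the same highest sample and a smaller spread, with cKO 1 just above control 4 (log2 fold change -1.02 ± 0.34, adjusted p = 0.451), and it was one of the genes that DESeq2 called. *Ttc30b* stood at 11.8, 7.39, 9.54 and 9.14 CPM in controls 1 to 4 and 8.43, 11.4, 10.6 and 11.6 in cKO 1 to 4. Its cKO samples 2 to 4 lay above controls 2 to 4 and below control 1, and the fold change had the other sign (log2 fold change 0.15 ± 0.18, adjusted p = 0.846).

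Since reads could be divided wrongly between paralogs, their TPM were also added. The sum was 88.9, 26.8, 44.4 and 28.6 TPM in controls 1 to 4 and 33.1, 20.2, 19.3 and 16.4 TPM in cKO 1 to 4. Only cKO 1 lay above any control, and the means were 47.2 ± 28.9 and 22.2 ± 7.44 TPM (SD, n = 4 each; two-sided exact permutation test, p = 0.0857, where the smallest p that 4 against 4 allows is 0.0286). Without control 1 the difference in means was -11.04 TPM in place of -24.95 TPM. Without that sample the log2 fold change of *Ttc30a2* was -0.94 and that of *Ttc30a1* -0.65, and without cKO 1 that of *Ttc30a2* was -2.62. In the paralogs' shares, *Ttc30a2* had the most TPM of the 3 in controls 1 and 3 and in cKO 1, and *Ttc30b*, the lowest of the 3 in every control, was above *Ttc30a2* in cKO 2, 3 and 4.

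**Figure D3:**
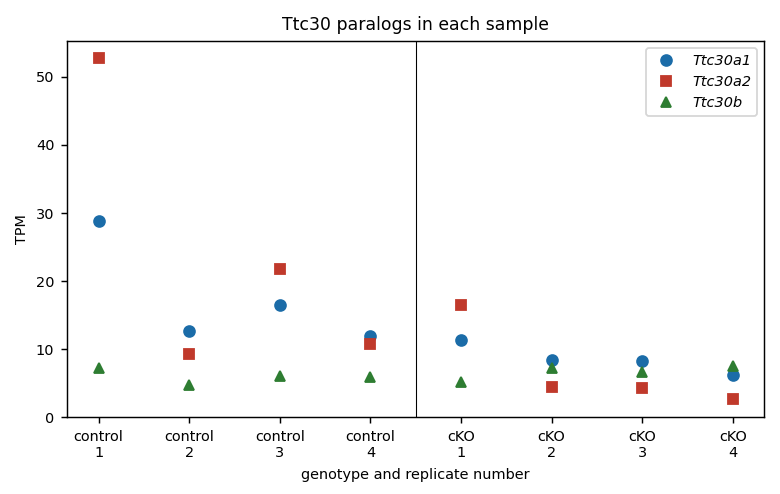
TPM (y axis, from 0) of the 3 IFT70 paralogs in each of the 8 samples (x axis), 1 point per sample. *Ttc30a2* ran from 2.67 to 52.8 TPM and *Ttc30b* from 4.79 to 7.48 TPM.

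The BBSome list had a median fold change nearer 0 than the IFT and dynein lists, a difference that was not tested. The list held 6 BBSome subunits, the 3 chaperonin-like genes *Bbs10*, *Bbs12* and *Mkks* that assemble it, and *Lztfl1*, which restrains its entry into cilia. Of these 10, 8 had a negative log2 fold change, against 48.6% of all genes tested, with a median of -0.16. Lower values in cKO with an unadjusted p under 0.05 were found for 3, against 6.28% of all genes. The 3 became 1 without control 3 or cKO 2. Over all 20187 genes, the count lower in cKO was 1008 without control 3 and 860 without cKO 2, in place of 1267. *Bbs7*, a subunit of the BBSome core, stood at 34.7, 26.2, 31.0 and 19.8 CPM in controls 1 to 4 and 18.7, 19.2, 21.6 and 20.9 in cKO 1 to 4. Control 4 was among the cKO samples and the other controls were above them (log2 fold change -0.48 ± 0.16, adjusted p = 0.426). *Bbs1*, the subunit that contacts ARL6, stood at 36.7, 35.4, 41.1 and 31.5 CPM in controls 1 to 4 and 25.1, 25.2, 29.5 and 34.7 in cKO 1 to 4. Only cKO 4 passed the lowest control (log2 fold change -0.34 ± 0.13, adjusted p = 0.47). *Lztfl1* stood at 50.3, 36.5, 47.5 and 35.8 CPM in controls 1 to 4 and 37.3, 34.4, 35.5 and 31.6 in cKO 1 to 4. Here cKO 1 lay above controls 2 and 4 (log2 fold change -0.29 ± 0.12, adjusted p = 0.529).

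*Bbs2*, *Bbs4*, *Bbs5* and *Bbs9*, the other subunits, had log2 fold changes of -0.15 ± 0.09, -0.13 ± 0.11, -0.22 ± 0.17 and -0.11 ± 0.10, and each overlapped between genotypes. Of the chaperonin-like genes, *Bbs10* had -0.17 ± 0.17 and *Mkks* 0.28 ± 0.17, the most positive value of the 40 genes (adjusted p = 0.649). *Bbs12*, the lowest gene of the list per length, stood at 5.43, 5.51, 5.56 and 4.14 CPM in controls 1 to 4 and 5.51, 5.18, 4.61 and 6.10 in cKO 1 to 4. These values overlapped throughout (log2 fold change 0.05 ± 0.20, adjusted p = 0.967). In TPM, *Bbs12* had medians of 3.93 in controls and 3.835 in cKO, and *Lztfl1*, the highest of the list, medians of 65.4 and 49.4.

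The 3 ARF-like GTPases did not share a value. *Arl3*, which releases lipid-modified cargo inside the cilium, stood at 56.8, 38.6, 30.6 and 26.0 CPM in controls 1 to 4 and 25.7, 22.0, 25.3 and 22.2 in cKO 1 to 4. Every cKO sample was below the lowest control, by little for cKO 1, and control 1 was the highest (log2 fold change -0.67 ± 0.22, adjusted p = 0.433). *Arl6*, which recruits the BBSome, stood at 24.4, 20.4, 22.9 and 20.6 CPM in controls 1 to 4 and 20.4, 18.0, 19.8 and 20.3 in cKO 1 to 4. The highest cKO sample, cKO 1, was level with control 2, and the other cKO samples lay below all controls (log2 fold change -0.17 ± 0.11, adjusted p = 0.672). *Arl13b*, which activates ARL3 at the ciliary membrane, had a log2 fold change of 0.00 ± 0.14 with a 95% interval from -0.30 to 0.31. In TPM, *Arl3* had medians of 100.8 in controls and 68.4 in cKO, and *Arl6* medians of 26.3 and 23.5.

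**Figure D4:**
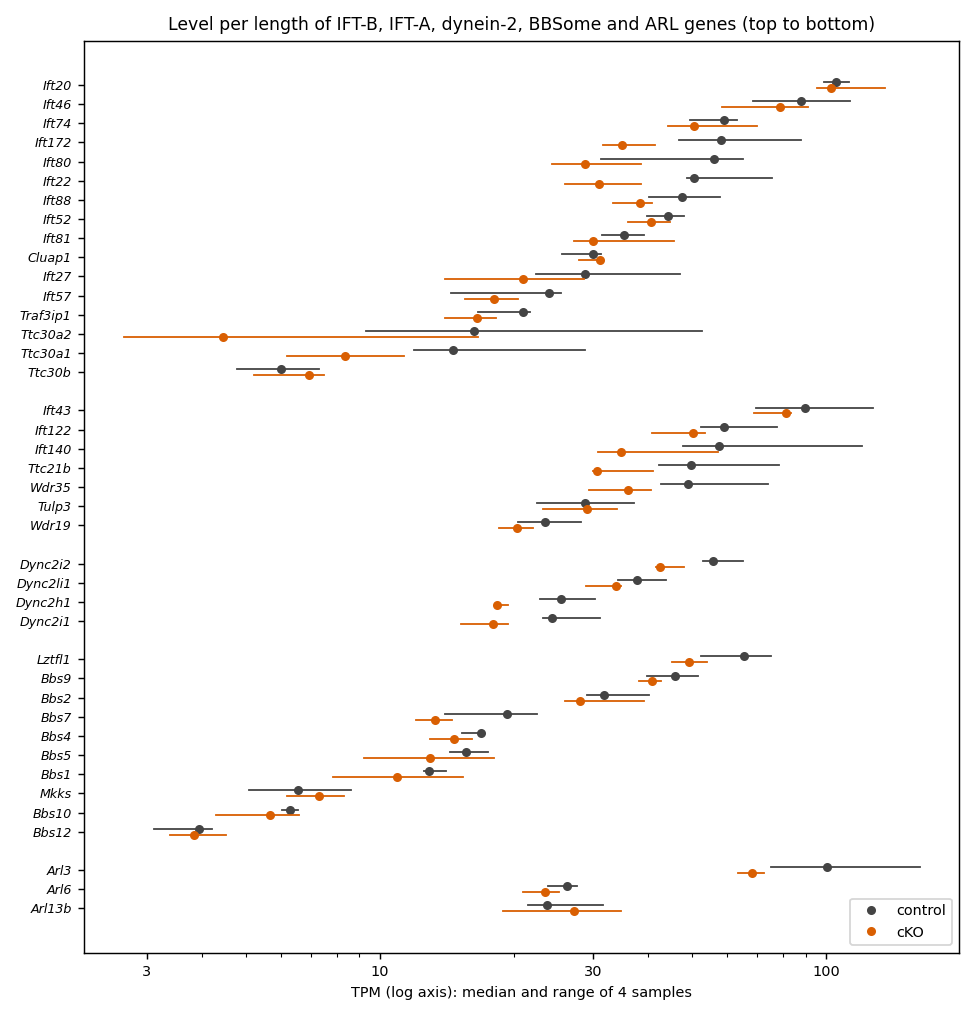
TPM (x axis, log scale) of the 40 tested genes grouped by role and ordered within it by the control median, with the median and range of the 4 control and 4 cKO samples. *Ift20* and *Arl3* have control medians of 105.2 and 100.8 TPM and *Bbs12* one of 3.93 TPM.

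The libraries numbered 1 stood apart in both genotypes for these genes. Control 1 was the highest control for 31 of the 40 genes and cKO 1 the highest cKO sample for 21, against 35.8% and 36.1% of all genes tested. The median ratio of replicate 1 to the mean of replicates 2 to 4 was 1.28 in controls and 1.08 in cKO over the 40 genes, and 0.982 and 0.978 over all genes. For *Ttc30a2* the ratio was 3.91 in controls and 4.4 in cKO, and for *Ift140* 2.37 and 1.65. Genes with a higher ratio had a more negative fold change. Over the 40 genes, Spearman's rho between the ratio (mean of both genotypes on the log2 scale) and the log2 fold change was -0.72. The fold change contains those same libraries, so it was also computed without them, and rho was then -0.73, although the ratio still shares replicates 2 to 4 with it. Genes share libraries and are not independent replicates.

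**Figure D5:**
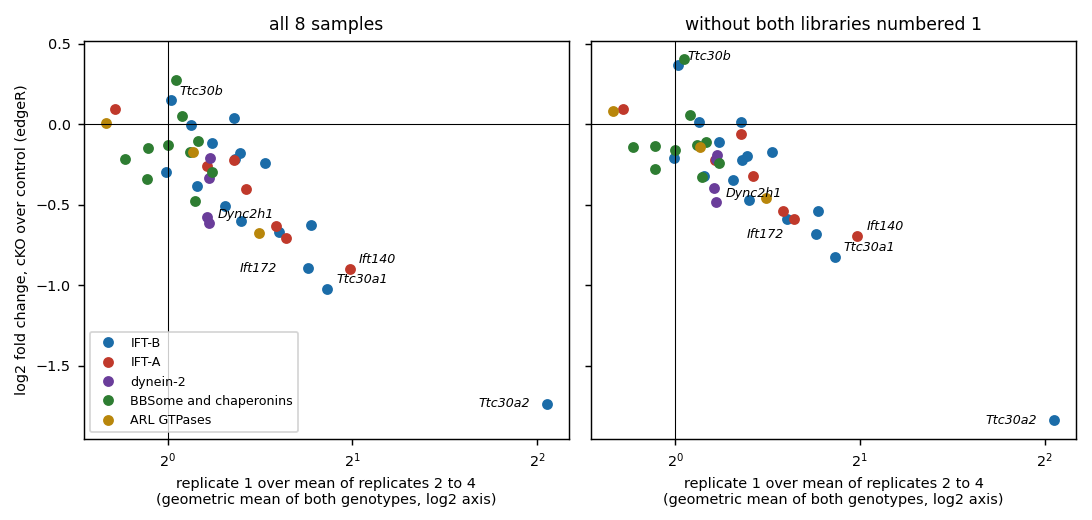
Log2 fold change (y axis) against the ratio of replicate 1 to the mean of replicates 2 to 4 (x axis, geometric mean of both genotypes, log2 scale) for the 40 tested genes, coloured by role, with all 8 samples on the left and without both libraries numbered 1 on the right. *Ttc30a2*, with ratios of 3.91 and 4.4, lies at the lower right in both panels, and rho is -0.72 on the left and -0.73 on the right.

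Without both libraries numbered 1, edgeR called 9 of the 40 genes, all lower in cKO, against 3.78% of all genes called lower (4.24% in either direction). They were *Dync2h1*, *Dync2i1*, *Ift172*, *Ttc30a1*, *Ttc21b* and *Ift22*, which DESeq2 called with all samples, and *Ift140* (log2 fold change -0.69, adjusted p = 0.000678), *Ift122* (-0.32, adjusted p = 0.0156) and *Arl3* (-0.46, adjusted p = 0.0238). The median of the 40 was then -0.22, nearer 0 than with all samples, and 33 were negative. Every cKO sample lay below every control for 16 of the 40 in these 6 libraries, against 10.6% of all genes. The replicate number is a label only, and what sets these libraries apart was not tested.

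Markers of germ cell stages were summed in the same libraries. All 7 pachytene markers had a negative log2 fold change (median -1.62), against 48.6% of all genes tested. Of the 7, 2 (*Hspa2* and *Piwil1*) had an unadjusted p under 0.05, against 6.28% of all genes in that direction. The 2 became 1 without cKO 2, 3 or 4 and 6 without cKO 1. Over all 20187 genes, the count lower in cKO was 860, 858 and 888 without cKO 2, 3 and 4, and 1845 without cKO 1. The median of the 7 was -0.59 without control 1, where 6 were negative, and -2.58 without cKO 1. The 7 summed to 2196, 704, 953 and 579.7 TPM in controls 1 to 4 and 724.5, 291, 304 and 247 TPM in cKO 1 to 4. The samples numbered 1 were highest in each genotype, as in the summed TPM of the IFT-A and IFT-B lists. In the sums of the dynein-2, BBSome and ARL lists, cKO 1 was not the highest cKO sample. The 8 spermatogonial markers summed to 379 to 459.5 TPM in controls and 439 to 534 TPM in cKO. Of the 8, 1 had a negative fold change, against 48.6% of all genes. That marker was *Id4*, at a log2 fold change of -0.48, with every cKO sample below every control. At an unadjusted p under 0.05, *Id4* was lower in cKO (1 of 8, against 6.28% of all genes). *Etv5* and *Stra8* were higher (2 of 8, against 2.62% of all genes). The 8 early meiotic markers summed to 876 to 1483 and 903 to 1196 TPM, with 5 negative fold changes, against 48.6% of all genes. Among them only *Spo11* had an unadjusted p under 0.05 (log2 fold change -0.54), 1 of 8 against 6.28% of all genes in that direction. The 8 round spermatid markers summed to 19.3 to 54.6 and 15.7 to 27.2 TPM, and *Prm1* and *Tnp2* among them had 0 TPM in every sample. Of the 3 markers of multiciliated epithelium, *Mcidas* and *Gmnc* were at 0 to 0.19 and 0 to 0.4 TPM and *Ccno* at 3.23 to 4.97 TPM in controls and 3.39 to 6.76 TPM in cKO (log2 fold change 0.27 ± 0.23, adjusted p = 0.754). The part of cell composition in the fold changes of the IFT and BBSome genes was not tested.

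Other genes of the pathway had a median fold change of the same sign. The list held 38 (kinesin-2 motors, dynein light chains, further BBSome subunits, RAB GTPases and ciliary kinases). Of these, 28 had a negative log2 fold change, against 48.6% of all genes tested, with a median of -0.16. An unadjusted p under 0.05 was reached by 7 with lower values in cKO, against 6.28% of all genes. The 7 were *Dynlt2b*, *Wdpcp*, *Mak*, *Cdk20*, *Mok*, *Spef2* and *Dynlt1b*. With higher values it was reached by 1 (*Dynlrb1*, 0.24 ± 0.09), against 2.62% of all genes. At the adjusted threshold 0 passed in edgeR, against 0.0396% of all genes, and 0 in DESeq2, against 1.41% lower and 0.0894% higher. The 7 became 1 without cKO 2 or cKO 4, 2 without control 1 or cKO 3 and 4 without control 3. They became 13 without cKO 1 and 15 without control 4. The 1 became 0 without cKO 1 and 2 without control 1 or control 2. Over all 20187 genes, the count lower in cKO ran in these fits from 858 (without cKO 3) to 1845 (without cKO 1). The count higher in cKO was 771 without cKO 1, 544 without control 1 and 377 without control 2. The kinesin-2 genes *Kif3a*, *Kif3b* and *Kifap3*, which drive the outward trains, had -0.18 ± 0.09, -0.16 ± 0.10 and -0.16 ± 0.16. The remaining BBSome subunits *Ttc8* and *Bbip1* had -0.25 ± 0.18 and -0.20 ± 0.12, and the further IFT-B subunits *Ttc26* and *Hspb11* -0.34 ± 0.18 and 0.10 ± 0.13.

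Flagellar and motile cilium genes, which encode cargo and structure rather than transport, had median fold changes further from 0. Of 33 tested *Cfap* genes, 32 had a negative log2 fold change, with a median of -1.26. All 11 tested axonemal dynein heavy chains (*Dnah*) did, with a median of -1.53. Over all genes tested, 48.6% had a negative log2 fold change. The *Dnah* values depend on the filter, which left out 5 of the 16 genes. With no expression filter, 14 of 16 *Dnah* genes were negative (median -1.25). In that fit 32 of 33 *Cfap* genes (median -1.25) and 14905 of all 29415 genes were negative. An unadjusted p under 0.05 was reached by 13 of the 33 and 8 of the 11, all lower in cKO, against 6.28% of all genes. The 13 became 9 without cKO 2 or cKO 4 and 10 without control 1 or cKO 3. That count rose to 20 without control 4 and 24 without cKO 1. The 8 became 5 without control 1, 3 without cKO 2, 3 or 4 and 11 without cKO 1. Over all 20187 genes, the count lower in cKO ran in these fits from 858 (without cKO 3) to 1845 (without cKO 1). Without control 1 the medians were -0.78 for *Cfap* and -1.02 for *Dnah* genes. DESeq2 called 9 *Cfap* genes and 1 *Dnah* gene lower in cKO, against 1.41% of all genes. The difference between these lists and the IFT and BBSome genes was not tested.

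Regulators of ciliary genes were measured too. *Rfx2*, an RFX factor that spermatids need to form flagella, stood at 124, 57.2, 74.9 and 46.7 CPM in controls 1 to 4 and 54.8, 39.0, 36.0 and 43.0 in cKO 1 to 4. Replicate 1 was again the highest sample in each genotype (log2 fold change -0.81 ± 0.31, adjusted p = 0.529). *Rfx4*, another member of that family, stood at 26.8, 9.53, 17.1 and 9.06 CPM in controls 1 to 4 and 7.30, 2.52, 3.70 and 1.84 in cKO 1 to 4. Every cKO sample was below every control (log2 fold change -2.02 ± 0.52, adjusted p = 0.35), and DESeq2 called it lower (adjusted p = 0.00144). *Rfx1*, *Rfx3* and *Foxj1*, the last a factor for motile cilia, had 0.13 ± 0.11, 0.19 ± 0.15 and -0.40 ± 0.35.

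The libraries were not stranded, so reads from genes that overlap on opposite strands cannot be told apart. In GENCODE M39, 23 of the 41 genes shared exonic bases with another gene, from 0.237% of their exonic bases for *Dync2i2* to 21.7% for *Ift20*. *Dync2h1*, *Dync2i1*, *Ift172* and *Ift22* shared none, *Ttc21b* shared 1.3% and *Ttc30a1* 11.5%. *Ift88os* and *Ift88* shared 67 bases. The 6 genes that DESeq2 called lie in GRCm39 at chr9:6928503-7184497 (*Dync2h1*), chr12:116169879-116226763 (*Dync2i1*), chr5:31410612-31448512 (*Ift172*), chr2:75808591-75812311 (*Ttc30a1*), chr5:136936910-136944262 (*Ift22*) and chr2:66012055-66087013 (*Ttc21b*), each the span of the whole gene. RSEM's effective length per gene, the ratio of counts to TPM, ranged over the samples by 0.76 log2 units for *Ift80* and 0.68 for *Ift57*. The median range over 13220 genes was 0.21. Among the 6 genes DESeq2 called, it was 0.47 for *Ift172*, 0.41 for *Ift22*, 0.26 for *Dync2i1*, 0.255 for *Dync2h1*, 0.11 for *Ttc21b* and 0.01 for *Ttc30a1*. The cKO minus control difference was 0.23 for *Ift22*, -0.13 for *Dync2h1* and -0.06 to 0.02 for the rest of the 6. Levels of genes with a wide range differ between TPM and CPM.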

How the data were processed

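RNA was sequenced from 15-day germ cells of 4 *Mgat2*[F/F] control and 4 *Mgat2*[F/F]:*Stra8*-iCre cKO males, 1 non-stranded poly(A) library per mouse. Per the submitters' processing notes and the paper's methods, reads were aligned to mm39 with STAR 2.7.9a and quantified with RSEM 1.3.3 on Ensembl 105, and the authors compared genotypes with DESeq2 1.38.3. The authors deposited RSEM expected counts for 55357 genes, with no filter or normalization between samples, and RSEM divides reads that fit several genes between them. The deposited TPM values are RSEM's per-length estimates for the same libraries and were used for the filter, levels and marker sums.

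Expected counts were rounded, since 15.2% of those above 0 were not whole. A gene was tested if it reached 1 TPM in any sample, which held for 20187. Genotypes were compared with edgeR 4.0.16 (TMM factors, robust quasi-likelihood fit, genotype as the only term), p-values were adjusted after Benjamini and Hochberg across the 20187 genes, and 0.05 was the threshold. Standard errors are the log2 fold change divided by the square root of F, and 95% intervals use the fit's degrees of freedom. CPM are scaled with TMM factors. The summed TPM of the IFT70 paralogs were compared with a two-sided exact permutation test. Positions and exon overlaps came from GENCODE M39 (GRCm39), and promoters from RefSeq (GRCm38.p6). The tests were tried on simulated counts. Tools were R 4.3.3, DESeq2 1.42.0, limma 3.58.1, Python 3.11.15, Biopython 1.88 and matplotlib 3.10.9.

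All 41 genes but *Ift88os* were placed in a role. Values in every sample are given for genes with an unadjusted p under 0.05, for the highest and lowest gene of each role by median TPM, for the IFT70 paralogs and for *Mgat2*, *Rfx2* and *Rfx4*. *Ift140* was added after its values were seen. The genes, lists and tests were chosen with earlier results of these data known. Alternatives were DESeq2, other normalizations, filters and fits, limma on log2(TPM + 1) and log2(TPM + 0.1), the replicate number as a block, the half-site in place of the X-box, leaving out each sample, and leaving out both libraries numbered 1. DESeq2 without those libraries was added after the data were seen.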

Additional observations from a re-analysis of the deposited data

Results flagged for a closer look

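In 8 of 80 groups of 4 samples, 1 sample stood farther from the other 3 than Dixon's 95% limit, where chance gives about 5%, or 1 in 20. The cKO replicate 1 was the high sample for *Ttc30a2* (23.4 CPM, next 6.21), *Ift140* (165 CPM, next 104), *Ttc21b* (113 CPM, next 83), *Ift172* (86.7 CPM, next 64) and *Ift20* (47.5 CPM, next 37.2). The low samples were cKO replicate 2 for *Cluap1* (22.7 CPM, next 27.8), cKO replicate 3 for *Ift43* (21.4 CPM, next 25) and control replicate 4 for *Bbs12* (4.14 CPM, next 5.43). Groups of genes share the same libraries, so these are not independent flags.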

How the results depend on the processing

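The number of all genes called, 8 with edgeR, was 302 with DESeq2, 18 with upper-quartile normalization, 17 with library totals, 35 without an expression filter, and 0 with limma-voom, without the robust option, with limma on log2(TPM + 1) or log2(TPM + 0.1), filterByExpr or a mean of at least 10 counts. Without both libraries numbered 1 it was 855, and 899 with DESeq2. Leaving out 1 sample gave 0 to 32. The count among the 40 genes, 0 with edgeR, was 6 with DESeq2, 1 without the filter, 9 without both libraries numbered 1 and 11 with DESeq2 without them. Leaving out 1 sample gave 0 to 1, the 1 being *Dync2h1* without control 1 (adjusted p = 0.032) or without control 4 (adjusted p = 0.0365). The cause of these shifts was not tested.

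With the replicate number as a block, edgeR called 1464 genes and 18 of the 40, and DESeq2 1223 and 14. Deviations of same-numbered samples correlated at 0.535, 0.145, 0.0389 and 0.197 for replicates 1 to 4, with a mean of 0.229 against -0.0683 for samples of different numbers, and 4 of the 8 samples correlated best with their own number. Replicate 3 did not exceed 0.1 and the labels state no pairing, so the block was kept as an alternative. Whether the numbers mark a shared litter or batch was not tested. The block changed the call on the summed counts of the IFT70 paralogs, with a log2 fold change of -0.93 (adjusted p = 0.0165) in edgeR in place of -1.03 (adjusted p = 0.567).

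*Mgat2* passed the threshold with DESeq2 (log2 fold change -1.06, adjusted p = 0.0252) and with DESeq2 and the block (-1.08, adjusted p = 0.00171), and not with edgeR. Of 920 values of the 40 genes under 23 alternatives, 834 kept direction and call, 61 of 18 genes passed the threshold and 25 of 5 genes near 0 changed sign. *Tulp3* gave -0.0131 with limma on log2(TPM + 1) and -0.0133 on log2(TPM + 0.1). *Cluap1* gave 0.0213 with upper-quartile normalization, 0.0572 and 0.059 with limma on those 2 scales, and, without both libraries numbered 1, 0.0125 in edgeR and 0.0067 in DESeq2. *Arl13b* gave -0.0055 with DESeq2, -0.0053 with its size factors in edgeR, -0.0018 with library totals, -0.0175 with limma-voom, and with the block -0.0092 in edgeR and -0.0187 in DESeq2. Leaving out 1 sample gave -0.0711 to 0.1272 for *Ift20*, -0.0729 to 0.063 for *Cluap1*, -0.1064 to 0.1201 for *Arl13b* and -0.0358 to 0.1148 for *Bbs12*.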
